A study of Mus musculus with 50 samples.

Results

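The genes described here encode the CPEB proteins and the main poly(A)-binding proteins of the mouse, which act on the poly(A) tails of stored oocyte mRNA. They were chosen by name: Cpeb1, Cpeb2, Cpeb3, Cpeb4, Pabpc1, Pabpc1l, Pabpc4 and Pabpn1. All 8 have a row among the 16614 rows of the count table. Their mRNAs were measured by RNA-seq of single oocytes at the germinal vesicle stage, the fully grown stage that is arrested before the first meiotic division. The genotypes were a conditional knockout (cKO-Zfp36l2) and its floxed control (F/F). The knockout group held 24 oocytes from 4 mice, with 1, 7, 8 and 8 oocytes in mice 1 to 4. The floxed group held 26 oocytes from 4 mice, with 5, 7, 7 and 7 oocytes.

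Females of both genotypes were 5 weeks old, were injected with 10 IU of the gonadotrophin PMSG to stimulate their follicles, and were sampled 46 hours later. Collection medium contained 5 μM milrinone, a phosphodiesterase inhibitor that keeps oocytes arrested, and cumulus cells and zona were stripped off before lysis. The labels name neither the Cre driver nor the strain, and knockout mouse 1 is represented by a single oocyte. The mouse was the replicate, so counts of its oocytes were summed and expressed as CPM, the usual scale on which every mouse's counts have the same total. A CPM value is a share of all counts, so it cannot show whether an oocyte held more or less mRNA in all. Because cDNA was primed on poly(A) tails, a count may also depend on tail length, which was not measured.

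As background, a growing oocyte stores many mRNAs with short poly(A) tails, and the timed lengthening of those tails switches their translation on during meiotic maturation. CPEB proteins bind the cytoplasmic polyadenylation element, a U-rich motif in the 3′ untranslated region, and either repress the mRNA or recruit the machinery that extends the tail. Cytoplasmic poly(A)-binding proteins (PABPC) coat the tail, link it to the translation initiation factors and serve as a platform for regulators of decay, whereas PABPN1 binds new tails in the nucleus. ZFP36L2, the product of the targeted gene, binds AU-rich elements and promotes removal of the tail and decay of the mRNA.

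Totals ran from 1746007 to 6233840 counts per oocyte. Zfp36l2 was low in both genotypes, at 2.77, 1.61, 2.56 and 1.06 CPM in knockout mice 1 to 4 and 3.51, 1.96, 4.17 and 3.44 CPM in floxed mice 1 to 4. The groups overlapped, and the log2 fold change was −0.78 ± 0.43 (SE), with an adjusted p of 0.208 in the edgeR quasi-likelihood test, so this gene's count does not by itself separate the labels. All 12 oocyte markers were measured; their sum was 5172 to 5813 CPM in knockout mice and 4993 to 6312 CPM in floxed mice, and 1 of them, Figla, was called higher. Of 15 cumulus and granulosa markers, 13 were tested, 0 were higher and 1, Cyp11a1, was lower; the sum over the list was 169.7 to 323 CPM in knockout mice and 172 to 262 CPM in floxed mice. Of 5 blood and endothelial markers only Pecam1 was analysed, at 18.7 to 35.7 CPM in knockout mice and 91.1 to 175 CPM in floxed mice, and it was called lower. Whether these markers have a part in the results was not tested.

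The 3′ untranslated regions of the members were searched for 2 kinds of motif, whose part in the comparison was not tested. TATTTAT is the DNA spelling of the core that proteins of the ZFP36 family bind, and TTTTAT and TTTTAAT are spellings of the cytoplasmic polyadenylation element. For each gene the search used the sense strand of the coding transcript with the longest annotated 3′ untranslated region (GENCODE M21, mm10). TATTTAT occurred in all 4 CPEB genes and in none of Pabpc1, Pabpc1l, Pabpc4 and Pabpn1. The 7 TATTTAT matches of the CPEB genes are shown with their flanks, TATTTAT in capitals, 5′ to 3′ on the strand of the gene.
Cpeb1 site (chr7:81347980-81348002, minus strand): cttgggttTATTTATtaaagcgc
Cpeb2 upstream site (chr5:43288568-43288590, plus strand): acagatcaTATTTATtttactat
Cpeb2 downstream site (chr5:43289646-43289668, plus strand): ctgccaacTATTTATattaagta
Cpeb3 site (chr19:37022240-37022262, minus strand): aatttgtaTATTTATaatcaagt
Cpeb4 upstream site (chr11:31932267-31932289, plus strand): agtgcgcgTATTTATttaactga
Cpeb4 middle site (chr11:31935374-31935396, plus strand): ggttgtagTATTTATtctagcat
Cpeb4 downstream site (chr11:31935552-31935574, plus strand): caaatgacTATTTATaccagtat

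The downstream Cpeb2 site ended 64 bases before the annotated end of the transcript, and the downstream Cpeb4 site 68 bases before it. Length alone makes such matches common in long regions, so each was set beside the tested genes whose 3′ untranslated region lies within 20% of the same length. TATTTAT was held by 58.6% of regions as long as that of Cpeb2 (3778 bases), 56.9% for Cpeb3, 59.8% for Cpeb4 and 30.3% for Cpeb1. For Pabpc1, whose region has 439 bases, the share was 11.8%. A match is a description of the letters and no evidence of binding.

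TTTTAT was present in 6 of the 8 members, at 2 places in Cpeb1, 20 in Cpeb2, 6 in Cpeb3, 11 in Cpeb4 and 1 each in Pabpc1 and Pabpc4. TTTTAT was held by 62.6% of regions as long as that of Cpeb1, 90.3% for Cpeb2, 89.4% for Cpeb3 and 90.9% for Cpeb4. The share was 32.7% for Pabpc1 and 32.1% for Pabpc4. The median was 3 matches in regions as long as those of Cpeb2, Cpeb3 and Cpeb4, and 1 for Cpeb1. TTTTAAT was found 2 times in Cpeb1, 4 times in Cpeb2 and 6 times in Cpeb4. Of the 26 matches of any of these motifs in Cpeb2, 5 overlapped another match; no match overlapped another in the other members. The single TTTTAT of Pabpc1 and of Pabpc4 is shown in capitals, because these 2 genes have short regions with no other match.
Pabpc1 site (chr15:36595841-36595862, minus strand): aattaatgTTTTATagaccctg
Pabpc4 site (chr4:123298836-123298857, plus strand): gatgccagTTTTATgttacaat

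Of the 8 members, 2 were called higher in knockout mice, Pabpc1 and Cpeb2, and 0 were called lower, by edgeR's quasi-likelihood test with Benjamini-Hochberg adjustment over the 15029 genes tested. All 8 passed the filter on low counts. Across all tested genes 27.6% were called, 14.4% higher and 13.2% lower, so the share of members called is near that of the whole table. The median log2 fold change was 0.08 over the members and −0.01 over all genes tested.

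**Figure D1:**
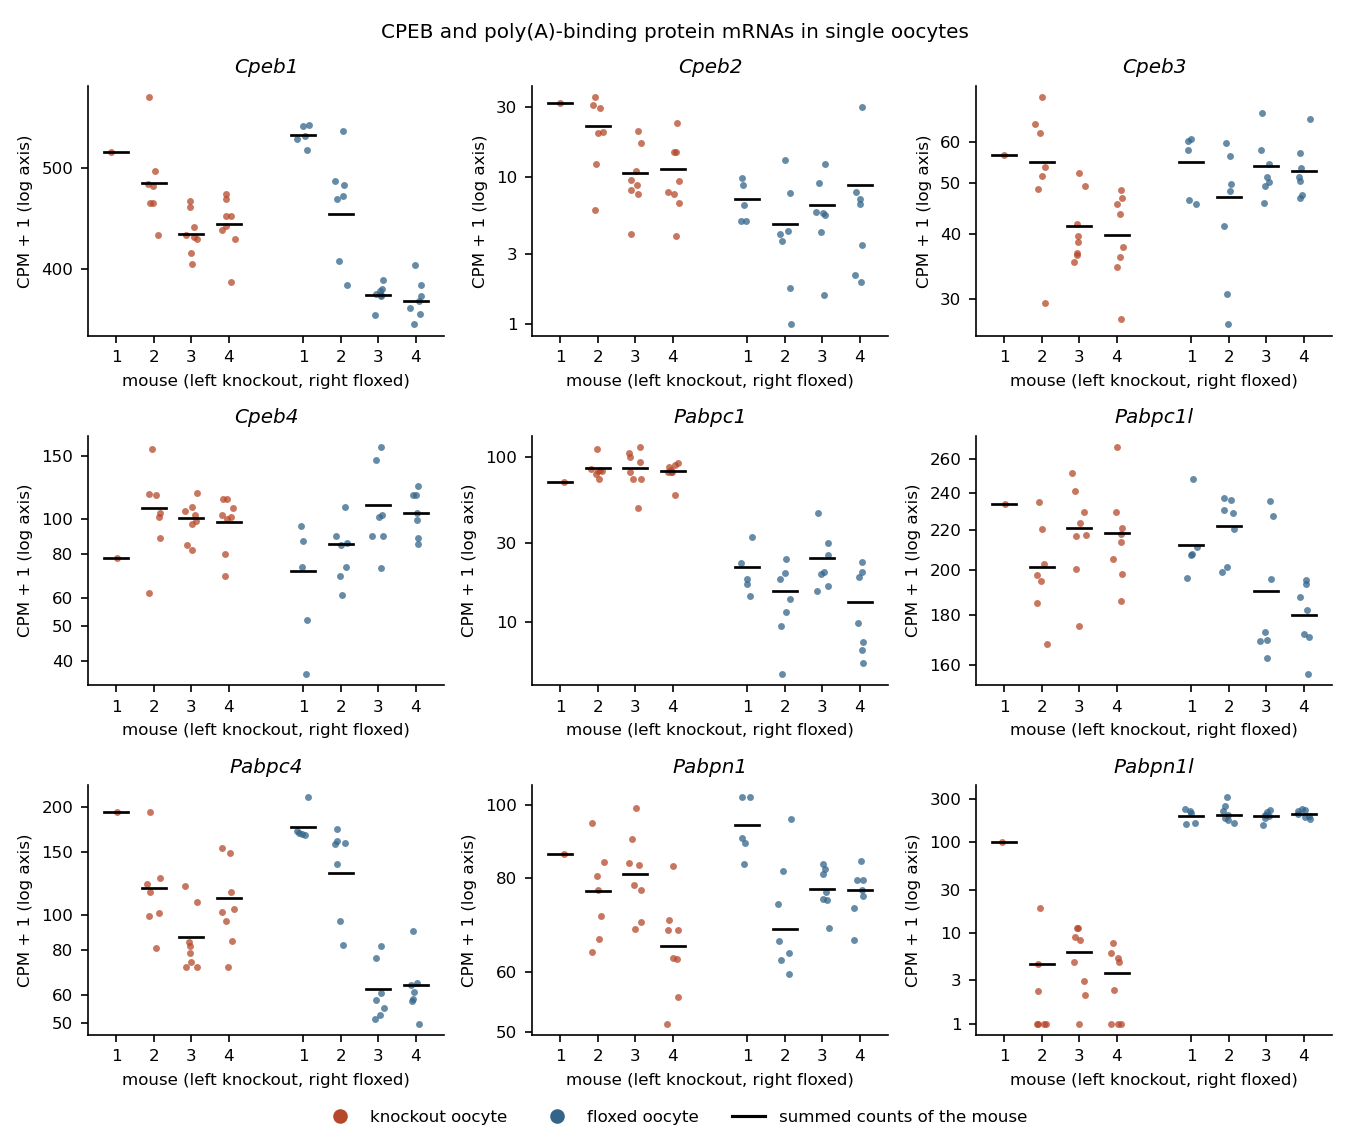
CPM + 1 on a log axis for the 8 members and Pabpn1l, 1 point per oocyte, by mouse, with knockout mice 1 to 4 on the left and floxed mice 1 to 4 on the right of each panel; black lines are the summed counts of each mouse. All 24 knockout oocytes lie above all 26 floxed oocytes for Pabpc1 and below all of them for Pabpn1l, while Cpeb1 and Pabpc4 differ more between floxed mice than between the genotypes.

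Pabpc1 encodes the general cytoplasmic poly(A)-binding protein of somatic cells, which bridges the tail and the cap-binding complex through eIF4G. Its mRNA (chromosome 15, 36595661 to 36609668, minus strand, mm10) stood at 69.9, 84.9, 84.8 and 81.7 CPM in knockout mice 1 to 4, against 20.5, 14.5, 23.6 and 12.2 CPM in floxed mice 1 to 4. The lowest knockout mouse lay well above the highest floxed mouse, and the single-oocyte knockout mouse was the lowest of its group. Mean levels were 80.3 ± 7.08 CPM in knockout mice and 17.7 ± 5.25 CPM in floxed mice (SD, n = 4 each). The mRNA was 4.44-fold higher in knockout mice, a log2 fold change of 2.15 ± 0.21 (SE; 95% interval 1.67 to 2.63) with an adjusted p of 0.000322 in the edgeR quasi-likelihood test.

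Single oocytes separated completely for Pabpc1. They also did so for Tceb3, Slc7a8 and Dip2c, but these genes were picked for their likeness to Pabpc1 over the same oocytes. Their separation therefore follows in part from that choice. The share of all genes that separate in this way was not counted. Knockout oocytes ran from 47.9 to 114.5 CPM with a median of 82.0, and floxed oocytes from 3.85 to 44.8 CPM with a median of 17.2. The highest floxed oocyte, in mouse 3, had 233 counts and the lowest knockout oocyte, also in mouse 3, had 262 counts. The spread within a mouse, as SD on the log2(CPM + 1) scale, had a median of 0.203 over 3 knockout mice and 0.668 over 4 floxed mice. The median count per oocyte was 438.5 in the knockout and 80 in the floxed group, and the part of count depth in the spread was not tested. Pabpc1 shares 20.7% of its 50-base stretches with other annotated transcripts, all of them of 3 processed pseudogenes, so part of its count depends on how the authors treated reads with several matches. None of the 3 pseudogenes is a row of the table.

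Pabpc1l encodes the embryonic poly(A)-binding protein (ePAB), the predominant cytoplasmic form in oocytes and early embryos, required for female fertility in mice. Its mRNA (chromosome 2, 164025450 to 164050538) was at 233, 200.4, 219.9 and 218 CPM in knockout mice 1 to 4 and at 211, 221, 189.7 and 179 CPM in floxed mice 1 to 4. The groups overlapped. The log2 fold change was 0.08 ± 0.09 (SE; 95% interval −0.11 to 0.28), with an adjusted p of 0.516 in the edgeR quasi-likelihood test. The upper bound lies below the lower bound of Pabpc1, 1.67. Among single oocytes it was one of the least variable members, from 167 to 267 CPM in knockout oocytes and from 156 to 247 CPM in floxed oocytes.

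Pabpc4 encodes the inducible poly(A)-binding protein, first described in activated T cells and able to bind the same tails. Its mRNA (chromosome 4, 123262351 to 123298925) stood at 193, 118, 85.9 and 111 CPM in knockout mice 1 to 4 and at 175, 130.1, 61.5 and 62.8 CPM in floxed mice 1 to 4. Mouse 1 was the highest in both genotypes, and floxed mice 3 and 4 were the lowest. The log2 fold change of 0.21 had a 95% interval of −0.61 to 1.03 and an adjusted p of 0.71 in the edgeR quasi-likelihood test. A 1.5-fold difference in either direction lies inside that interval, and without knockout mouse 1 the estimate was −0.12.

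Within the floxed group Pabpc4 differed between mice, and the mice also differed in depth. A slope of 1 of log2 count on log2 total means that a count grows in step with depth. Over the 26 floxed oocytes the slope was 0.04 for Pabpc4, 0.83 for Pabpc1l and 1.47 for Pabpc1. With each mouse's mean removed the slope was 0.64 for Pabpc4, 0.97 for Pabpc1l and 1.24 for Pabpc1. The median total was 4234358 and 3370802 counts in floxed mice 1 and 2 and 5217897 and 4883127 in floxed mice 3 and 4. Among floxed oocytes with totals between 3000000 and 4600000, a range chosen after the values were seen, Pabpc4 was at 166 to 170.5 CPM in 4 oocytes of mouse 1, 95.5 to 160.3 CPM in 3 of mouse 2 and 62.8 to 63.9 CPM in 2 of mouse 4. Mouse 3 had no oocyte in that range. The part of depth in the Pabpc4 differences between mice was not tested. With oocytes thinned to 3000000 counts, the Pabpc4 log2 fold change was 0.19. In addition, 70.3% of the 50-base stretches of Pabpc4 also occur in transcripts of 12 other annotated genes, all of them pseudogenes, with 67.5% in Gm10110 alone. The Pabpc4 count is therefore uncertain, and none of these genes is a row of the table.

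**Figure D2:**
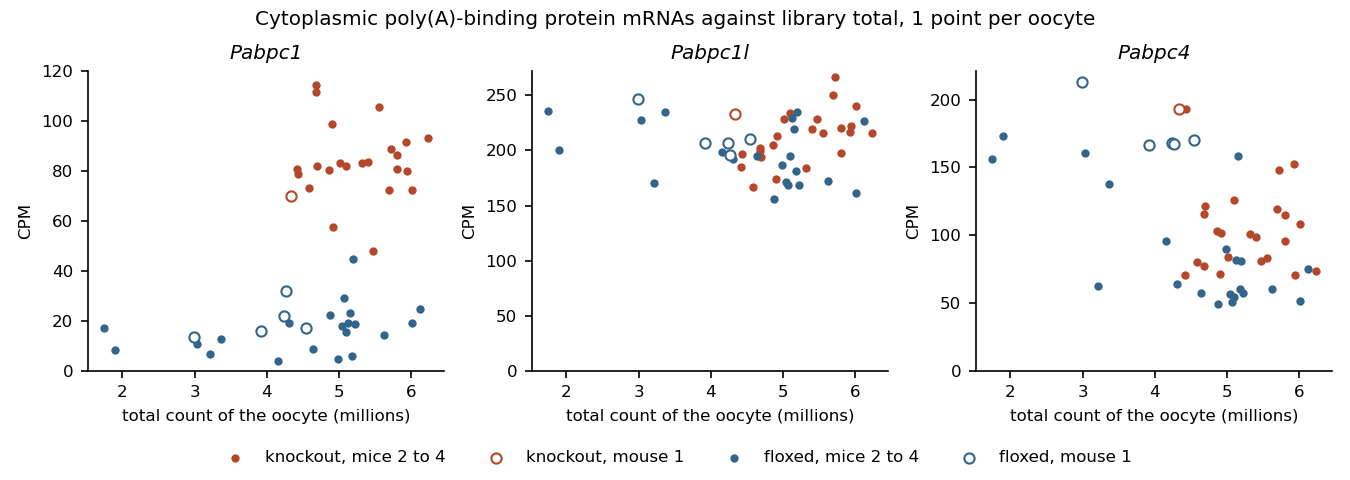
CPM of Pabpc1, Pabpc1l and Pabpc4 on linear axes against the total count of each oocyte, 1 point per oocyte, with open symbols for mouse 1 of each genotype. Pabpc4 in floxed oocytes of mouse 1 is above 160 CPM and in those of mice 3 and 4 below 90 CPM. For Pabpc1 every knockout oocyte lies above every floxed oocyte. Knockout totals start at 4332108 counts and floxed totals at 1746007, so shallower floxed oocytes have no knockout oocyte of like depth.

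Pabpn1 encodes the nuclear poly(A)-binding protein, which stimulates poly(A) polymerase and limits the length of new tails. Its mRNA (chromosome 14, 54892500 to 54898169) was at 85.2, 75.9, 79.9 and 64.0 CPM in knockout mice 1 to 4 and at 93.0, 67.5, 76.5 and 76.1 CPM in floxed mice 1 to 4. The groups overlapped and the log2 fold change was −0.08 (95% interval −0.37 to 0.22, adjusted p = 0.717, edgeR quasi-likelihood test). The annotated gene Gm20521 runs through Pabpn1 on the same strand, so reads of the 2 genes cannot be told apart.

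Cpeb1 encodes the founding member of the CPEB family, which binds the polyadenylation element in mammalian oocytes and is needed for their meiotic progression. Its mRNA (chromosome 7, 81347026 to 81455465, minus strand) was at 518, 483, 431 and 440.5 CPM in knockout mice 1 to 4 and at 536, 451, 377 and 371 CPM in floxed mice 1 to 4. In both genotypes mouse 1 was the highest. The log2 fold change was 0.08 ± 0.12 (SE; 95% interval −0.19 to 0.34), with an adjusted p of 0.678 in the edgeR quasi-likelihood test. Cpeb1 had the lowest spread of the members among floxed oocytes of a mouse, with a median SD of 0.048 on the log2(CPM + 1) scale. Of the 26 floxed oocytes, 13 were below every knockout oocyte, while the remaining 13 reached the knockout range.

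Cpeb2 belongs to the second branch of the family, with Cpeb3 and Cpeb4, whose RNA-binding domains resemble each other more than that of Cpeb1; in other cell types CPEB2 is known as a repressor of translation elongation. Its mRNA (chromosome 5, 43233170 to 43289724) was at 30.9, 21.4, 9.75 and 10.4 CPM in knockout mice 1 to 4, against 6.16, 3.84, 5.48 and 7.84 CPM in floxed mice 1 to 4. The groups did not overlap, as for 31.0% of all tested genes, but knockout mice 3 and 4 were close to floxed mouse 4. Means were 18.1 ± 10.1 CPM in knockout mice and 5.83 ± 1.66 CPM in floxed mice (SD, n = 4 each). The mRNA was 3.00-fold higher in knockout mice, with a log2 fold change of 1.58 ± 0.42 (SE; 95% interval 0.63 to 2.54) and an adjusted p of 0.0224 in the edgeR quasi-likelihood test.

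The call for Cpeb2 depends on single mice. The adjusted p of the edgeR test was 0.0643 without knockout mouse 2, 0.0682 without floxed mouse 2 and 0.0586 without floxed mouse 3, with log2 fold changes of 1.43, 1.43 and 1.55; leaving out knockout mouse 1 gave 1.17 with an adjusted p of 0.0324. Single oocytes overlapped broadly. They ran from 2.97 to 33.9 CPM with a median of 10.6 in the knockout, and from 0 to 28.9 CPM with a median of 4.62 in the floxed group, where 1 oocyte of mouse 2 held no count. Within a mouse the spread was wide in both genotypes, with a median SD of 0.804 over 3 knockout mice and 1.09 over 4 floxed mice on the log2(CPM + 1) scale.

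Cpeb3, known for its role in local translation in neurons, stood at 55.6, 54.0, 40.5 and 38.8 CPM in knockout mice 1 to 4 and at 53.9, 46.0, 53.0 and 51.7 CPM in floxed mice 1 to 4. Knockout mice 3 and 4 were below every floxed mouse and knockout mice 1 and 2 above every one of them. The log2 fold change of −0.16 ± 0.16 (SE; 95% interval −0.52 to 0.21) did not pass the threshold (adjusted p = 0.511, edgeR quasi-likelihood test). The gene (chromosome 19, 37021291 to 37208601, minus strand) overlaps the antisense gene A330032B11Rik, and the library kit does not mark strand.

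Cpeb4, which in frog oocytes takes over polyadenylation in the second meiotic division, was at 76.6, 107, 99.5 and 97.4 CPM in knockout mice 1 to 4 and at 70.4, 84.1, 108 and 103 CPM in floxed mice 1 to 4. Its mRNA (chromosome 11, 31872211 to 31935634) was lowest in mouse 1 of both genotypes. The log2 fold change was 0.02 (95% interval −0.36 to 0.39, adjusted p = 0.953, edgeR quasi-likelihood test), and its sign turned when single mice were left out. Single oocytes ran from 61.1 to 157 CPM in the knockout and from 35.7 to 158 CPM in the floxed group.

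**Figure D3:**
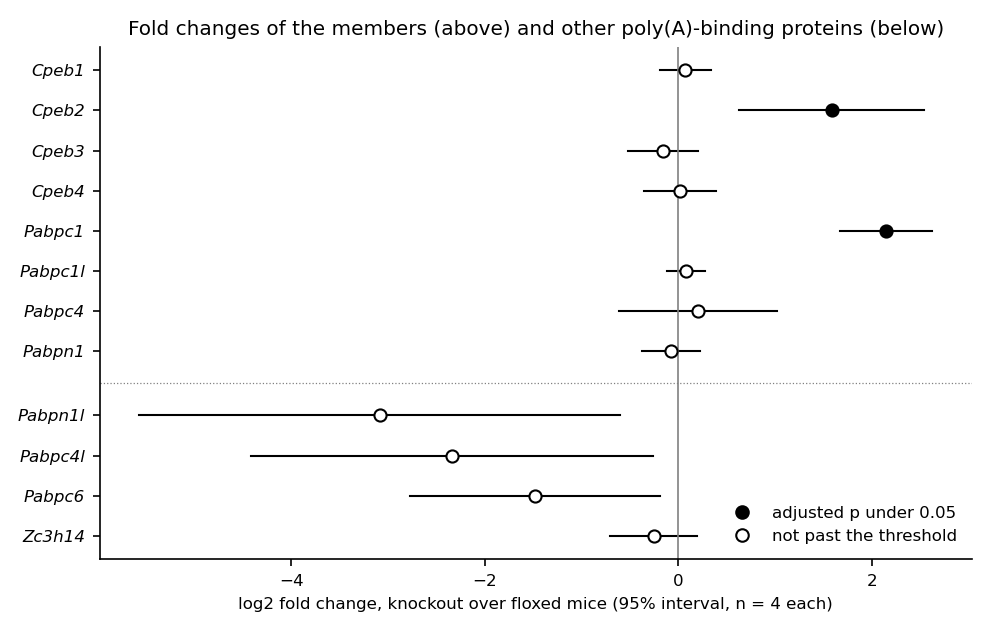
Log2 fold change of knockout over floxed mice (n = 4 each) for the 8 members above the dotted line and 4 other poly(A)-binding proteins below it, with 95% intervals; filled points have an adjusted p under 0.05 in the edgeR quasi-likelihood test. Only Cpeb2 at 1.58 and Pabpc1 at 2.15 are filled among the genes drawn, and Pabpn1l has a wide interval on the negative side.

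Levels of different genes were compared per kb of annotated transcript. In knockout mice the order of mean CPM per kb was Cpeb1 (192), Pabpc1l (92.5), Pabpn1 (74.0), Pabpc4 (44.4), Pabpc1 (28.5), Cpeb4 (20.5), Cpeb3 (10.4) and Cpeb2 (2.71). In floxed mice it was Cpeb1 (177), Pabpc1l (85.0), Pabpn1 (76.0), Pabpc4 (37.5), Cpeb4 (19.7), Cpeb3 (11.2), Pabpc1 (6.28) and Cpeb2 (0.872). Pabpc1 thus stood above Cpeb4 and Cpeb3 in knockout mice and below both in floxed mice. In both genotypes the orders were the same when the longest coding transcript was used for length. The pseudogene matches of Pabpc4 and Pabpc1 given above also limit the places of these genes in the orders.

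Some neighbours in these orders were not separated by the mice. In floxed mice Pabpc1l (76.0 to 93.8 CPM per kb) overlapped Pabpn1 (65.5 to 90.3), and Pabpc4 (21.5 to 61.1) overlapped Cpeb4 (15.2 to 23.4), whereas Cpeb3 (10.1 to 11.9) lay above Pabpc1 (4.35 to 8.37) in every mouse. In knockout mice Pabpc4 (30.1 to 67.5) overlapped Pabpn1 (62.2 to 82.7) at its upper end and Pabpc1 (24.8 to 30.1) at its lower end. With the longest coding transcript for length, the knockout means were 43.0 for Pabpn1 and 40.8 for Pabpc4. The floxed means were then 85.0 ± 8.17 for Pabpc1l, 44.1 ± 6.01 for Pabpn1 and 34.5 ± 17.7 for Pabpc4 (SD). The Pabpn1 length was 1030 bases in the first case and 1775 bases in the second. The overlap of Pabpc1l with Pabpn1 in floxed mice thus depends on the length used. Cpeb1 lay at percentile 99.1 in knockout mice and 98.5 in floxed mice among 14799 tested genes with a transcript length. Pabpc1 lay at percentile 70.5 in knockout mice and 43.9 in floxed mice.

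Expressed as shares of the 3 cytoplasmic poly(A)-binding protein mRNAs per length, Pabpc1 made up 12.98%, 19.2%, 19.6% and 18.1% in knockout mice 1 to 4 and 4.60%, 3.55%, 7.58% and 4.25% in floxed mice 1 to 4. The ranges did not overlap. By these counts Pabpc1l was the largest share in every mouse. It stood at 56.2% ± 3.95 in knockout mice and 67.2% ± 8.12 in floxed mice (SD, n = 4 each). Pabpc4 held 26.4% ± 6.59 in knockout mice and 27.8% ± 8.96 in floxed mice. Of the 50-base stretches, 70.3% for Pabpc4, 20.7% for Pabpc1 and 0.0% for Pabpc1l also occur in pseudogene transcripts. These shares and their order therefore depend on how reads with several matches were counted, which is not known. Among the 4 CPEB mRNAs, Cpeb1 made up 85.1% ± 1.06 in knockout mice and 84.4% ± 3.77 in floxed mice. Cpeb2 stayed the smallest, at 1.17% ± 0.566 in knockout mice and 0.425% ± 0.151 in floxed mice.

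**Figure D4:**
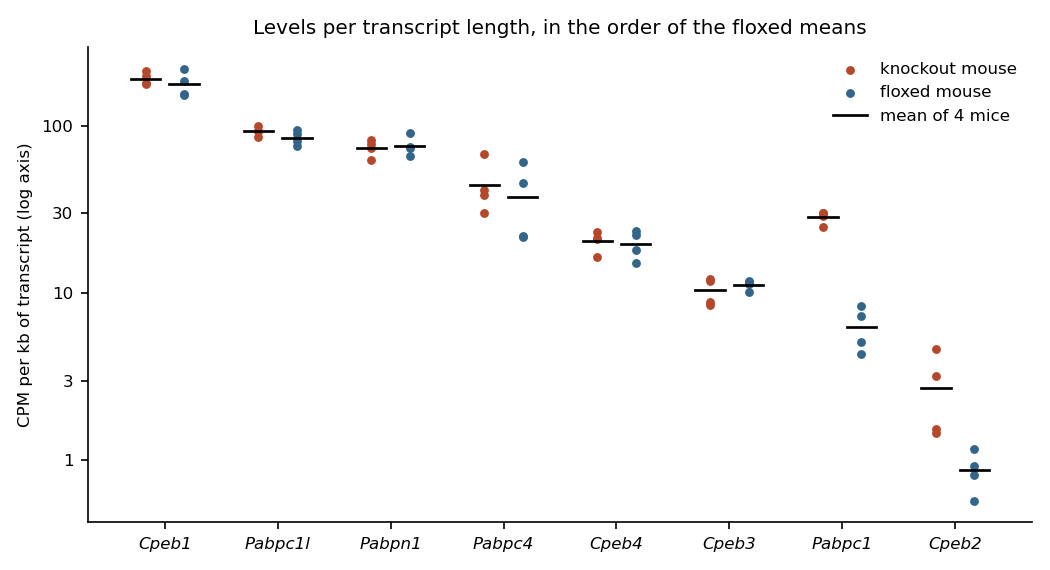
CPM per kb of annotated transcript on a log axis for each member, 1 point per mouse, knockout left of floxed, with black lines at the mean of 4 mice and genes ordered by the floxed means. Cpeb1 is the highest in both genotypes, and Pabpc1 is at 28.5 CPM per kb in knockout mice and 6.28 CPM per kb in floxed mice.

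Across oocytes the members did not move as one group. With each mouse's mean removed (49 oocytes of the 7 mice with several oocytes), the highest correlations of log2(CPM + 1) were 0.584 for Cpeb3 with Cpeb4, 0.576 for Cpeb1 with Pabpc4 and 0.543 for Pabpc1l with Pabpc4. Cpeb3 and Pabpc4 had the lowest value, −0.399. The depth slopes over floxed oocytes, likewise with mouse means removed, were 1.29 for Cpeb3, 1.37 for Cpeb4, 0.84 for Cpeb1 and 0.64 for Pabpc4. The 2 values of a point come from 1 library and share its depth, whose part in these correlations was not tested. Pabpc1 was nearly unrelated to the other members, with values from −0.10 to 0.13.

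The genes most like each member over all 50 oocytes were taken among 9097 named genes whose mean reached 10 CPM. For Pabpc1 they were Tceb3, Slc7a8 and Dip2c, with Pearson r of 0.925, 0.916 and 0.906; r was 0.632, 0.468 and 0.473 with the genotype means removed and 0.489, 0.428 and 0.394 with the mouse means removed. For Cpeb2 they were Ccdc117, Pde12 and Fmr1, at 0.695, 0.692 and 0.689, and at 0.44, 0.442 and 0.483 with the mouse means removed. For Cpeb1 they were Rbpms2, Psmd5 and Ccno, at 0.928, 0.902 and 0.897, and at 0.795, 0.666 and 0.631 with the mouse means removed.

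The likeness was highest for Pabpc4, with Ppp4c, Ndel1 and Med25 at r of 0.946, 0.944 and 0.943, and 0.833, 0.859 and 0.841 with the mouse means removed. Cpeb3 was most like Rab21, Rab6a and Plaa (0.80, 0.786 and 0.786), and Cpeb4 most like Smg1, Ireb2 and Suco (0.796, 0.775 and 0.754). Pabpc1l was most like Edc4, Cops7a and Nucb1 (0.755, 0.742 and 0.740), and Pabpn1 most like Ccrn4l, Eif3f and Lsm14b (0.721, 0.682 and 0.660). These values describe the libraries, which share depth and mouse.

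The poly(A)-binding proteins outside the 8 members gave one large difference. Pabpn1l encodes the cytoplasmic embryonic relative of PABPN1 (ePABP2), present in oocytes and early embryos. Its mRNA (chromosome 8, 122619471 to 122622739, minus strand) was at 98.6, 3.51, 5.17 and 2.61 CPM in knockout mice 1 to 4, against 193, 199, 195 and 205 CPM in floxed mice 1 to 4. Every knockout mouse lay below every floxed mouse, but knockout mouse 1, with its single oocyte of 427 counts, lay far from the other knockout mice. The same mouse had the highest Zfp36l2 level of the knockout mice, 2.77 CPM from 12 counts. That level was inside the floxed range of 1.96 to 4.17 CPM. Knockout mouse 3, with Pabpn1l at 5.17 CPM, also lay inside that range, at 2.56 CPM of Zfp36l2. Its single oocytes ran from 0 to 6.10 CPM of Zfp36l2. Whether the allele had been deleted in the oocyte of knockout mouse 1 was not tested. All 24 knockout oocytes were below all 26 floxed oocytes, and the share of all genes that separate in this way was not counted. For Pabpn1l 8 knockout oocytes held no count, whereas the lowest floxed oocyte had 474 counts.

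With all mice the log2 fold change of Pabpn1l was −3.08 ± 1.11 (SE; 95% interval −5.57 to −0.60), which did not pass the threshold (adjusted p = 0.0659, edgeR quasi-likelihood test). Without knockout mouse 1 it was −5.80 ± 0.23 with an adjusted p of 7.71e-06. Per length, Pabpn1l stood at 3.05, 4.50 and 2.28 CPM per kb in knockout mice 2 to 4, and at 168 to 179 CPM per kb in floxed mice, close to the level of Cpeb1 there. Its annotated 3′ untranslated region of 263 bases held 0 matches to TATTTAT and 0 to TTTTAT.

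Of the 6 other poly(A)-binding proteins listed, 4 were tested and 0 were called by the edgeR test, 2 by DESeq2 and 1 by limma, which called 36.3% and 29.0% of all genes; Pabpc2 and Pabpc5 were not analysed here. At an unadjusted p under 0.05, 3 of the 4 passed (Pabpn1l, Pabpc4l and Pabpc6), as did 40.0% of all genes tested. Pabpc4l was near 0, at 0, 0.204, 0.202 and 0.894 CPM in knockout mice 1 to 4 and at 3.31, 2.49, 1.49 and 0.248 CPM in floxed mice 1 to 4, with adjusted p = 0.0894 (edgeR). Pabpc6, an intronless gene, was at 0.231 to 0.635 CPM in knockout mice and 0.817 to 1.90 CPM in floxed mice, with adjusted p = 0.0844 (edgeR). Zc3h14, a nuclear zinc finger protein that binds tails and limits their length, was at 193, 121, 117 and 110 CPM in knockout mice and at 207, 140.4, 135 and 143 CPM in floxed mice, highest in mouse 1 of both. Its log2 fold change was −0.25 (adjusted p = 0.384, edgeR), −0.52 without knockout mouse 1 (adjusted p = 0.0296, edgeR) and −0.36 without mouse 1 of both genotypes (adjusted p = 0.00666, edgeR), refits that called 34.7% and 43.9% of all genes.

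Among 21 genes of the cytoplasmic polyadenylation machinery and CPEB partners, 2 were called higher and 3 lower, 23.8% against 27.6% of all genes. Parn, a deadenylase found in the CPEB complex of frog oocytes, was at 201, 257, 239 and 249 CPM in knockout mice and at 99.9, 124, 137 and 135 CPM in floxed mice, a log2 fold change of 0.89 (adjusted p = 0.00153, edgeR). The groups did not overlap. The poly(A) polymerase gene Papolg was lower (log2 fold change −0.65), as were Ngdn, which encodes the CPEB-binding repressor neuroguidin (−0.37), and Cpsf4l, a relative of a cleavage and polyadenylation factor (−0.34), with adjusted p of 0.0119, 0.0173 and 0.0194 in the edgeR test. Cpsf2, chosen after its values were seen because it completes the count, was higher at 0.44 (adjusted p = 0.0214, edgeR). Ngdn and Cpsf4l each missed the threshold when floxed mouse 2 or floxed mouse 4 was left out, with adjusted p of 0.0504 to 0.0563.

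Of 22 partners of cytoplasmic poly(A)-binding protein, 3 were higher and 3 lower, 27.3% against 27.6% of all genes. Larp1, which binds PABPC1 and regulates mRNAs of the translation machinery, had the highest fold change of the 6, at 46.2, 46.5, 59.4 and 46.0 CPM in knockout mice against 17.1, 17.6, 23.8 and 15.0 CPM in floxed mice (log2 fold change 1.39 ± 0.19, adjusted p = 0.00119, edgeR). The groups did not overlap. Tnrc6a, the GW182 protein that links Argonaute to PABPC and the deadenylases, was higher at 1.11 (adjusted p = 0.00265). The ataxin gene Atxn2 was lower at −0.56 (adjusted p = 0.00173) and the release factor gene Gspt2 at −0.51 (adjusted p = 0.00408). Tnrc6c, higher at 0.51, and the PABP inhibitor gene Paip2b, lower at −0.42, complete the count and were chosen after their values were seen.

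Of 13 tested repressors and RNA-binding proteins of stored mRNA, 2 were higher and 2 lower, 30.8% against 27.6% of all genes. Ddx6, an RNA helicase of mRNA storage granules, was higher at 0.99 (adjusted p = 0.00112, edgeR). Msi2, of the Musashi family that acts beside CPEB in frog oocytes, was at 0.462, 1.69, 1.73 and 2.99 CPM in knockout mice and at 17.6, 16.98, 11.8 and 11.6 CPM in floxed mice, with −3.01 ± 0.43 (SE) as log2 fold change and an adjusted p of 0.00144 (edgeR). Zar1l, a relative of the oocyte protein ZAR1, was lower at −0.39 (adjusted p = 0.0178). Zar1l missed the threshold without floxed mouse 2 or floxed mouse 4.

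Of 22 mRNAs known to be bound by CPEB1 or polyadenylated in maturing oocytes, 4 were higher and 2 lower, 27.3% against 27.6% of all genes. The germ-line gene Tex19.1 was higher at 0.82 (adjusted p = 0.000589), the synaptonemal complex gene Sycp3 at 0.88 (adjusted p = 0.00249) and the BMP signal transducer gene Smad5 at 1.47 (adjusted p = 0.00367). Sycp1, the other synaptonemal complex gene of the list, went the other way, at 7.85, 12.5, 12.2 and 14.02 CPM in knockout mice and 29.8, 38.1, 50.7 and 44.7 CPM in floxed mice (log2 fold change −1.84, adjusted p = 0.00111, edgeR). The decapping enzyme gene Dcp2, higher at 0.46, and the meiotic kinase gene Mos, lower at −0.32, complete the count and were chosen after their values were seen. The medians of the 4 larger lists lay between −0.08 and 0.02, beside −0.01 for all genes tested.

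**Figure D5:**
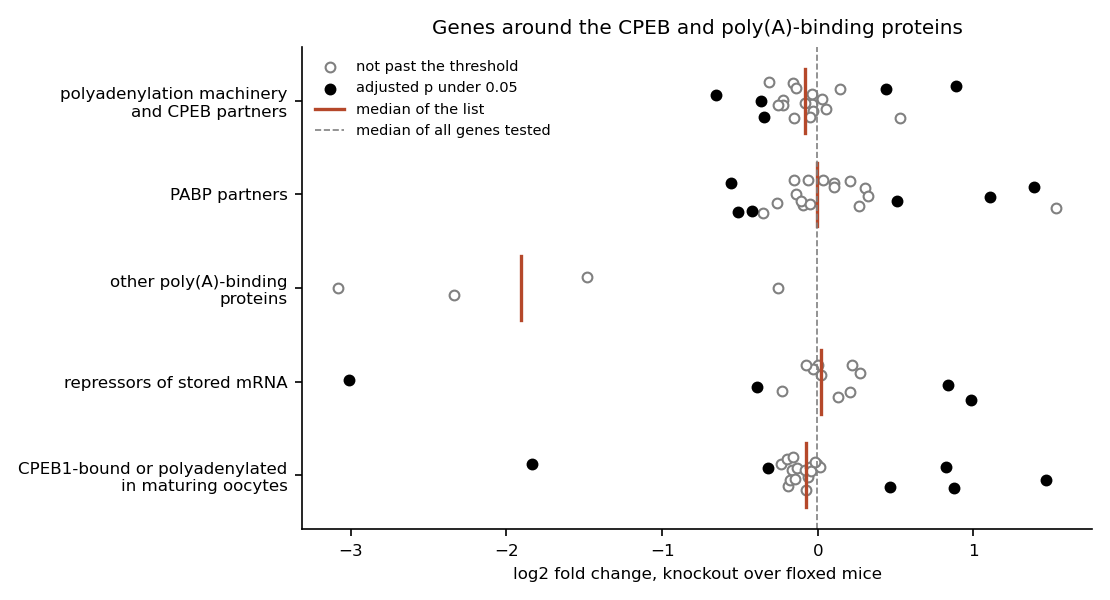
Log2 fold change of knockout over floxed mice for every tested gene of 5 lists around the members, 1 point per gene, filled where the adjusted p is under 0.05 in the edgeR quasi-likelihood test; red bars are list medians and the dashed line is the median of all genes tested. The 4 larger lists have called genes on both sides of 0, and the 4 other poly(A)-binding proteins all lie below 0 with none filled.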

How the data were processed

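Whole-number counts of reads per gene, as deposited by the authors in 1 table, cover 50 oocytes; the submitters' processing notes name STAR and the mm10 build. Neither the counting tool nor its treatment of reads with several matches is given in the sources used here. The labels' protocols name Trizol for RNA and the SMARTer Ultra Low Input kit v3 for cDNA. This kit primes on poly(A) tails, without strand marks or molecular identifiers, so intervals do not separate PCR copies from molecules. Columns of other sample values numbered 0.

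Counts were summed per mouse and tested with edgeR 4.0.16 in R 4.3.3 (TMM, filterByExpr with a minimum count of 10, robust quasi-likelihood test, Benjamini-Hochberg adjusted p under 0.05). CPM and log2 values were computed here from the deposited counts. The biological coefficient of variation was 35.4%. DESeq2 1.42.0 and limma 3.58.1 served as alternatives. Thinning drew 3000000 counts per oocyte and left out 3 shallower oocytes.

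Lengths, 3′ untranslated regions and coordinates were read from GENCODE M21 (mm10). Coordinates and 3′ untranslated regions were found by gene name, taking the longest region among coding transcripts. Lengths were matched by RefSeq accession for 16350 rows. Where an accession matched several annotated transcripts, the mean length was used. Figures were drawn with matplotlib 3.10.9 under Python 3.11.15.

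The members and gene lists were chosen with earlier results of these data known. Named genes were the members, Zfp36l2, in each list the called genes of smallest p (at most 4), all measured genes of the list of other poly(A)-binding proteins, and the 3 genes most like each member; exceptions are stated where they occur, and 1 gene that the rule gives is not reported here. The labels give mouse numbers in both genotypes. Deviations from the group means correlated at 0.317, −0.003, 0.248 and 0.181 between same-numbered mice 1 to 4. Between different numbers the values ran from −0.29 to 0.19. Knockout mice 1, 3 and 4 correlated best with the floxed mouse of their own number, but knockout mouse 2 did not. The numbers were therefore not taken to pair mice, and fits with the number as a block are given below. No oocyte pair was identical, and over 150 pairs of oocytes of a mouse the chi-square per degree of freedom was 5.39 to 28.2, above sampling noise.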

Additional observations from a re-analysis of the deposited data

Results flagged for a closer look

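Among 58 groups of 4 mice (29 genes in 2 genotypes), 5 held a mouse far from the other 3 relative to the range of the group; chance alone flags about 1 in 20 groups. Pabpn1l in knockout mouse 1 was at 98.6 CPM, against 2.61 to 5.17 CPM in the other knockout mice. Zc3h14 in knockout mouse 1 was at 193 CPM and in floxed mouse 1 at 207 CPM, each above the other 3 mice of its genotype. Larp1 in knockout mouse 3 was at 59.4 CPM, above the other knockout mice. Sycp3 in floxed mouse 2 was at 35.2 CPM, below the other floxed mice. Knockout mouse 1 is 1 oocyte, so mouse, oocyte and library cannot be told apart there.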

How the results depend on the processing

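Pabpc1 passed the threshold under every alternative tried, with log2 fold changes of 2.01 to 2.32 when single mice were left out. Over the same refits Cpeb2 ran from 1.17 to 1.77 and lost the call without 3 of the 8 mice. Of the 6 members that were not called, Cpeb3 (−0.29 to −0.12), Pabpc1l (0.00 to 0.14) and Pabpn1 (−0.18 to −0.04) kept their direction, and the others had ranges of −0.03 to 0.14 for Cpeb1 (−0.027 without knockout mouse 1), −0.13 to 0.10 for Cpeb4 and −0.12 to 0.47 for Pabpc4. Cpeb4 also turned to −0.044 without mouse 1 of both genotypes and to −0.033 with oocytes thinned to equal depth. Without mouse 1 of both genotypes 6731 genes were called (43.9%), 3549 of them lower; leaving out 1 mouse gave 2728 to 5360 called, 1359 to 2538 higher and 1219 to 2822 lower. With mouse number as a replicate block, Pabpc1 was at 2.19 and Cpeb2 at 1.46, both called. The SE fell from 0.364 to 0.14 for Pabpc4 (log2 fold change 0.289) and from 0.118 to 0.057 for Cpeb1 (0.085), neither called. Mouse 2 did not correlate best with its own number. The replicate block raised the calls to 8 in the polyadenylation list, 12 among PABP partners and 2 among other poly(A)-binding proteins (Pabpn1l at −4.78, adjusted p = 0.0134, and Zc3h14 at −0.27, adjusted p = 0.0282, edgeR), while the share called over all genes was 38.7%, against 27.6% without it. PABP partners had 10 calls without mouse 1 of both genotypes. Other poly(A)-binding proteins had 2 calls by DESeq2 and without mouse 1 of both genotypes, and 1 each by limma on oocyte means and after thinning. Leaving out 1 mouse gave 2 to 6, 5 to 10 and 0 to 2 calls in these 3 lists. The cause of these shifts was not tested.

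Cpeb2 rests on few counts, 0 to 144 per floxed oocyte. Pabpc4 is limited by copies in pseudogenes and by the differences between mice of one genotype.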
